A study of Mus musculus with 4 samples.

Results

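The cells described here are granulocyte-monocyte progenitors (GMPs), taken from single-cell RNA-sequencing (scRNA-seq) libraries of mouse bone marrow (BM) and spleen as the barcodes that carry the mRNAs of the primary granule. A barcode was selected on 3 measured values: at least 3 of *Elane*, *Prtn3*, *Ms4a3*, *Mpo*, and *Ctsg* detected with these 5 genes summing to at least 20 UMIs per 10000, at most 3 UMIs of the monocyte genes *Csf1r* and *F13a1*, and the secondary granule genes *Ngp*, *Camp*, *Ltf*, and *Lcn2* together below 50 UMIs per 10000. A UMI (unique molecular identifier) is the tag that marks 1 captured mRNA molecule. Of 16261 barcodes with at least 1000 genes and at most 10% mitochondrial UMIs, 2728 passed this gate, 562 in control BM (CBM), 1573 in tumor-bearing BM (TBM), 115 in control spleen (CS), and 478 in tumor-bearing spleen (TS). Levels of the 11 gate genes are therefore given only as a description, and the libraries were compared over all other genes.

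All mice were C57BL/6J, aged 8-16 weeks and female by the study's methods, without (CBM, CS) or with (TBM, TS) a transplanted PyMT-B6 tumor, a mammary tumor line from mice that express the polyoma middle T oncogene. 1 library was made per group, and the number of mice behind a library was not given in the sources used here. Lineage-positive cells were depleted, and c-Kit+ hematopoietic populations and CD45- stromal populations were sorted and pooled at equal ratios, and shares below refer to that pool rather than to the organ. With 1 library per group no test was possible, mouse and library cannot be told apart from the condition, and 95% intervals (exact, from Poisson counts for levels and their ratios and from the binomial for shares) describe counting error alone.

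GMPs descend from common myeloid progenitors and give rise to neutrophils and monocytes, and their promyelocyte-like progeny fill the primary (azurophil) granules with myeloperoxidase and the serine proteases neutrophil elastase, proteinase 3, and cathepsin G. The transcription factors PU.1 and C/EBPα open the program, C/EBPε and GFI1 carry cells toward neutrophils, and IRF8 carries them toward monocytes and dendritic cells. In extramedullary hematopoiesis such progenitors also divide in the spleen, which the study examined as a source of neutrophils in tumor-bearing mice, together with TNFα, a cytokine that acts through NF-κB.

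Promoters of 4 genes are shown because the gate rests on the first 3 and the last is the NF-κB target with the largest ratio of CS over CBM. Each is the 250 bases before the RefSeq transcript start, on the plus strand of GRCm38.p6, with PU.1 letters (GAGGAA), C/EBP letters (TTNCNNAA), and matches to the NF-κB consensus in capitals.
*Elane* (chr10:79886062-79886311): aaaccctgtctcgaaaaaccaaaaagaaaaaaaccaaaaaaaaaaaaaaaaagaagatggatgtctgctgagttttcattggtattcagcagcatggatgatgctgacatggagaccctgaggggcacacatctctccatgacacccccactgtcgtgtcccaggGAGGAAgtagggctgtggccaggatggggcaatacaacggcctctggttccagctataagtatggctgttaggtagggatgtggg
*Prtn3* (chr10:79879417-79879666): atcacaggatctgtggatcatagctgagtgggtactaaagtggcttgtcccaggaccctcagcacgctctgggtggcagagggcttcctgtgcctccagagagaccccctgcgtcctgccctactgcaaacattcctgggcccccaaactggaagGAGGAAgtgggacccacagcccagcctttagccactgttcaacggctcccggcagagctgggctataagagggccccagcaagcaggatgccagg
*Mpo* (chr11:87793534-87793783): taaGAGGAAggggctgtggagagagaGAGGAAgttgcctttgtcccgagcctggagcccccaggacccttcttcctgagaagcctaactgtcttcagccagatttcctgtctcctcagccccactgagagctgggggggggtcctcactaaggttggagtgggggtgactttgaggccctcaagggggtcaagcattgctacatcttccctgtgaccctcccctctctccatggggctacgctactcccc
*Cxcl2* (chr5:90903649-90903898): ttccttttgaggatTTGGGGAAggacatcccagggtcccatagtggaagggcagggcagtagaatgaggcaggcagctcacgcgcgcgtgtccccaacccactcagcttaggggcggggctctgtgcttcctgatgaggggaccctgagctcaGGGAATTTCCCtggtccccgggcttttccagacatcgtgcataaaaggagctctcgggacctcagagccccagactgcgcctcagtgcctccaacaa
*Prtn3* and *Elane* are neighbors on chromosome 10 (79879667 to 79883174 and 79886312 to 79888216), and the PU.1 letters lie 95 and 85 bases before their starts. Of the 5 granule genes of the gate, 4 held the PU.1 letters on either strand (not *Ms4a3*, which held the C/EBP letters) and 0 held the NF-κB consensus. In *Cxcl2*, the consensus overlaps itself on opposite strands, spanning 97 to 88 and 96 to 87 bases before the start. Among all 32851 promoters of this length, 23.3% held the PU.1 letters, 36.8% the C/EBP letters, and 3.90% the NF-κB consensus. A match describes letters and not binding.

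The gate held 16.1% (14.9% to 17.3%) of the quality-filtered barcodes in CBM, 36.2% (34.8% to 37.7%) in TBM, 3.55% (2.94% to 4.25%) in CS, and 9.21% (8.44% to 10.0%) in TS. The gated cells of a library had a median of 13208.5 UMIs in CBM and 11477 in TBM, and 33052 in CS and 28598.5 in TS, and summed to 8859426, 26943744, 3656703, and 13751219 UMIs. The spleen cells were thus deeper than those of BM, and CS had the fewest cells and UMIs. In free RNA (the barcodes of 100 UMIs or fewer) the 5 granule genes summed to 104.5 UMIs per 10000 in CBM and 125.4 in TBM, and 24.5 in CS and 29.2 in TS, above the minimum of 20 in each library. Just inside that minimum, at 20 to 25 per 10000, lay 107 cells in CBM and 197 in TBM, and 8 in CS and 35 in TS, and just outside, at 15 to 20, lay 214, 263, 15, and 52 barcodes. At the limit on *Csf1r* plus *F13a1*, 40, 115, 15, and 48 gated cells had 3 UMIs, and 26, 87, 7, and 37 barcodes were left out with 4. Because of the free RNA, the main results are given beside their value in the 259, 849, 63, and 248 gated cells that held at least 100 granule gene UMIs per 10000, called granule-high below. These were 7.41%, 19.6%, 1.95%, and 4.78% of the quality-filtered barcodes, in the same order of libraries as the gate, and free RNA of both BM libraries still reached their minimum.

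**Figure D1:**
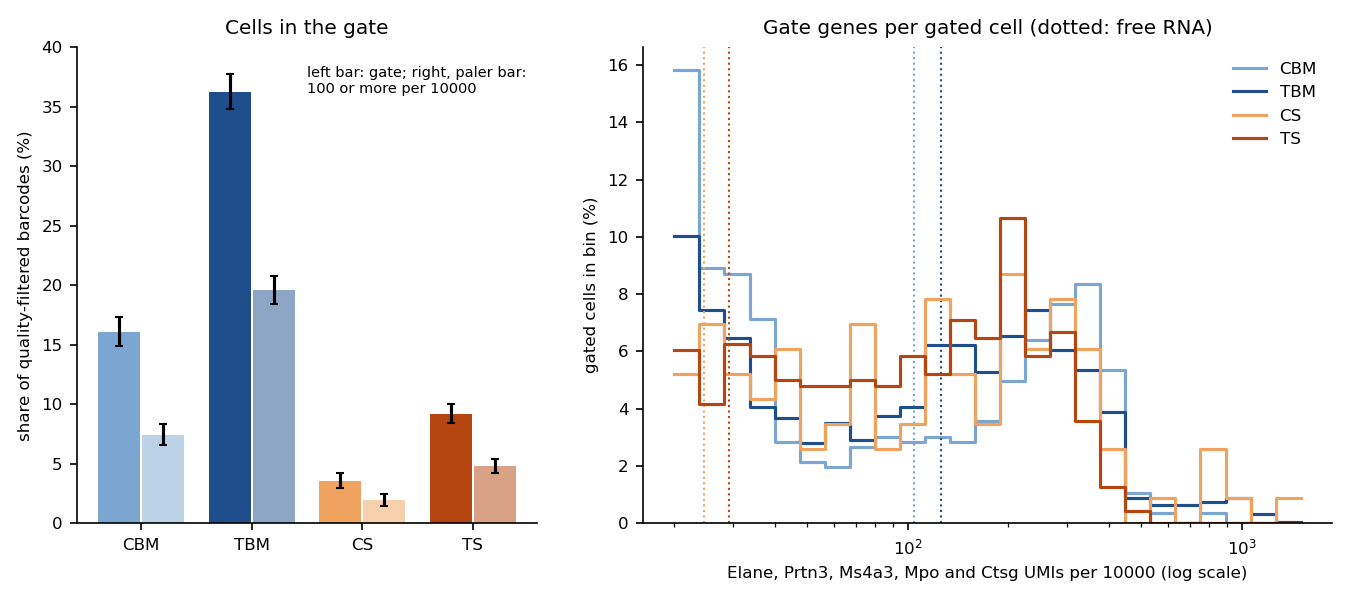
Left, share of quality-filtered barcodes (percent) in the gate and, paler, among granule-high cells, with exact binomial 95% intervals. Right, distribution of granule gene UMIs per 10000 (log axis) over the gated cells of each library, with dotted lines at the level of free RNA. The share was highest in TBM (36.2%) and lowest in CS (3.55%), and the free RNA lines of BM (104.5 and 125.4) cross the middle of the distributions.

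Markers that the gate did not use were in part those of GMPs. Levels are given as CPM, the UMIs of a gene per 1000000 UMIs of the gated cells of a library. *Cd34* was at 172 CPM in CBM against 154 in TBM, and 194 in CS against 147 in TS, *Kit* at 149 CPM in CBM against 113 in TBM, and 163 in CS against 108 in TS, and *Fcgr3*, which encodes a receptor that defines GMPs by flow cytometry, at 110.4 CPM in CBM against 94.5 in TBM, and 105 in CS against 67.8 in TS. The granule protease gene *Prss57* was at 159 CPM in CBM against 197 in TBM, and 152 in CS against 159.6 in TS, and *Cebpa* at 72.8 CPM in CBM against 67.5 in TBM, and 75.5 in CS against 61.4 in TS. *Ly6g* of mature neutrophils had at most 0.0371 CPM, and *Col1a1*, *Ncr1*, and *Siglech* were at 0 UMIs in each library. *Retnlg*, also a neutrophil gene, was at 1.47 CPM in CBM and 16.4 in TBM, and 0 in CS and 0.0727 in TS. In TBM it was at 43.2 CPM below 100 granule gene UMIs per 10000 and at 1.56 in granule-high cells. Cells with few granule genes held mRNAs of other classes. The basophil protease *Mcpt8* reached 1477 CPM in CBM and 2016 in TBM, and 848 in CS and 557 in TS below 100 granule gene UMIs per 10000, against 38.7, 93.9, 18.5, and 39.8 CPM in granule-high cells. Cells with at least 20 UMIs per 10000 in *Mcpt8*, *Prss34*, and *Cpa3* together were 41 of the gated cells in CBM and 207 in TBM, and 7 in CS and 23 in TS, and 3, 28, 0, and 1 of the granule-high cells. The stem cell factor gene *Hlf* was likewise lower in granule-high cells, with 16.4 against 104 CPM in CBM and 14.9 against 24.6 CPM in TS. So were *Cd34*, *Kit*, and *Cebpa*, at 90.8, 130, and 59.8 CPM in granule-high cells of CBM against 291, 177, and 91.7 in the rest of its gate. In TS *Cebpa* hardly differed, at 61.3 against 61.5 CPM. *Fcgr3* and *Prss57* were higher in granule-high cells of each library, as in CBM at 144 and 245 CPM against 62.1 and 34.4. The gate is thus a mixture, and the name GMP is used for the gated cells in that sense.

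Summed over the gated cells, the list of 10 mast cell and basophil genes ranged from 769 to 3073 CPM across the libraries, that of 12 erythroid genes from 566 to 1229, that of 8 B cell genes from 27.6 to 253, that of 8 megakaryocyte genes from 36.00 to 146, that of 8 stem-like genes from 235 to 358, that of 8 T and NK cell genes from 414 to 562, that of 8 dendritic cell genes from 175 to 238, that of 8 macrophage genes from 19.1 to 48.4, and that of 9 stromal and endothelial genes from 52.6 to 70.3. The T and NK sum does not show T or NK cells. Only 1 of its genes was compared, *Ncr1* had 0 UMIs, and *Cd3e* had at most 3 UMIs in a library. The sum was also higher in granule-high cells of each library, as in CBM at 751 against 556 CPM and in TS at 516 against 414. Single cells set some of the sums above: 92.9% of the *Hbb-bs* UMIs of TS lay in 1 gated cell. Gated cells with 3 or more UMIs of markers of other lineages were 33.8% in CBM and 48.4% in TBM, and 64.3% in CS and 58.6% in TS, and of granule-high cells 16.6%, 37.2%, 60.3%, and 49.6%. The erythroid list summed to 701 CPM in the granule-high cells of CS against 566 in its whole gate, so granule-high cells held mRNAs of other lineages too. The shares above rest on a fixed cut of 3 UMIs, and granule-high cells of spleen were deeper. Their medians were 23020, 19629, 37499, and 33124.5 UMIs. By level, the erythroid sum of granule-high cells was 120, 296, 701, and 264 CPM, and the mast cell and basophil sum 118, 249, 53.9, and 87.4. The part of depth and free RNA was not tested. Few gated barcodes were shared with another library (3, 9, 0, and 1).

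To describe how the members varied among themselves, the gated cells of each library were ordered by their granule gene UMIs per 10000 and the third with the most was set against the third with the fewest, the top and the bottom. Of 5102 genes compared, 95 were at least 2-fold higher at the top in all 4 libraries (1.86%) and 281 at least 2-fold lower (5.51%). Cells at the top were also deeper, with a median of 23843 against 5959.5 UMIs in CBM, 27329.5 against 10416 in TBM, 37810.5 against 24245 in CS, and 32899 against 19335.5 in TS, and the part of depth was not tested.

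*Cebpe*, the transcription factor gene of the promyelocyte stage, went from 5.44 to 189 CPM in CBM and 7.60 to 152 in TBM, and from 13.2 to 204 in CS and 8.90 to 139 in TS. *Gfi1*, the repressor that acts beside it, went from 15.8 to 71.1 CPM in CBM and 18.5 to 69.9 in TBM, and from 18.3 to 55.5 in CS and 10.7 to 58.2 in TS, and *Prss57* from 28.2 to 286 CPM in CBM and 42.97 to 314 in TBM, and from 42.6 to 259 in CS and 58.4 to 262 in TS. *Ly6c2*, which encodes the surface protein Ly6C, went from 83.1 to 1475 CPM in CBM and 52.6 to 793 in TBM, and from 16.2 to 1422 in CS and 9.79 to 288 in TS. The tight junction gene *Cldn15* went from 2.47 to 76.5 CPM in CBM and 2.95 to 72.1 in TBM, and from 2.03 to 70.9 in CS and 2.67 to 62.8 in TS, so that it was close to absent at the low end and at a like level at the high end of all 4 libraries. The cells were ordered by gate genes of this stage, so these values describe that order. The bottom cells reached up to 33.2 and 51.7 granule gene UMIs per 10000 in CBM and TBM, below the free RNA of these libraries. In the other direction, *Flt3*, the receptor of early progenitors, went from 98.95 to 1.02 CPM in CBM and 85.9 to 4.77 in TBM, and from 55.8 to 0.731 in CS and 44.8 to 0.778 in TS, and *Cd34* from 322 to 49.2 CPM in CBM and 271 to 45.98 in TBM, and from 294 to 84.8 in CS and 269 to 45.3 in TS. *Irf8* went from 135 to 35.7 CPM in CBM and 45.4 to 8.57 in TBM, and from 135 to 53.3 in CS and 58.2 to 9.92 in TS. *Irf8*, a monocyte lineage factor gene, was higher at the low end in each library. *Gata2*, a factor of stem, mast, and basophil cells, went from 268 to 6.88 CPM in CBM and 416 to 8.57 in TBM, and from 181 to 8.77 in CS and 149 to 3.70 in TS. The early response gene *Egr1* went from 344 to 8.41 CPM in CBM and 786 to 14.7 in TBM, and from 466 to 27.04 in CS and 566 to 24.1 in TS, and *Ifitm1*, an interferon-inducible gene of early progenitors, from 1159 to 19.1 CPM in CBM and 1732 to 315 in TS.

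By list, 10 of 15 genes of the primary granule and GMP stage and 5 of 7 later neutrophil genes were at least 2-fold higher at the top in all 4 libraries. Of the immediate-early genes 14 of 18 were at least 2-fold lower, of the NF-κB list 7 of 12, and of the mast cell and basophil list 6 of 6. None of 18 S phase genes and none of 17 G2 and mitosis genes passed 2-fold in all 4 libraries in either direction, counts near the shares over all genes. Those shares, beside which all these list counts stand, were 1.86% higher and 5.51% lower. *Mki67* went from 224 to 109 CPM in CBM and 304 to 163 in TBM, and from 291 to 145 in CS and 375 to 199 in TS, and *Spi1*, which encodes PU.1, from 129 to 175 CPM in CBM and 133 to 197 in TBM, and from 137 to 195 in CS and 162 to 239 in TS.

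**Figure D2:**
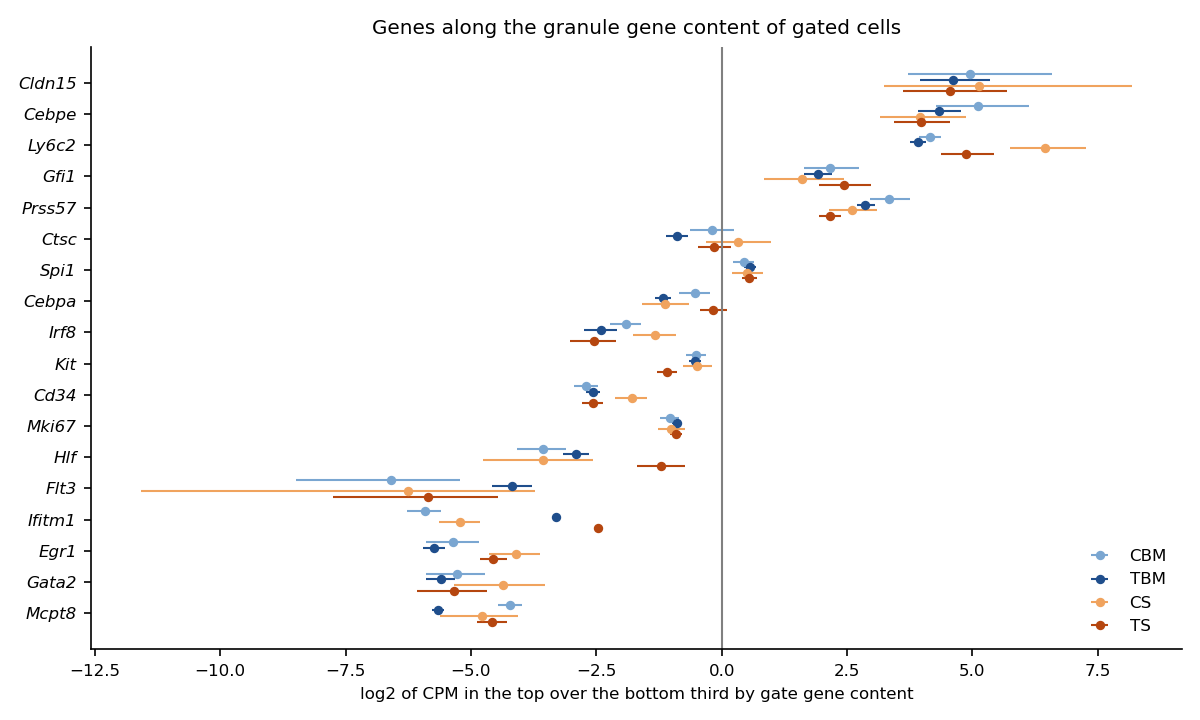
Log2 ratio of CPM in gated cells at the top over those at the bottom by granule gene content, for 18 genes (rows) in each of the 4 libraries (colors), with exact 95% intervals that cover counting error. *Cebpe*, *Ly6c2*, and *Gfi1* were higher at the top and *Flt3*, *Egr1*, *Gata2*, and *Mcpt8* lower in each library, while *Spi1* stayed within 0.44 to 0.56.

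In spleen, the comparison of TS with CS asks how GMPs of the tumor-bearing spleen differ from the few of the control spleen. Among 5039 genes that averaged 25 CPM or more, 22 were at least 2-fold higher in TS (0.437%) and 45 at least 2-fold lower (0.893%). A scaling by the median ratio over genes in place of total UMIs gave 12 higher and 67 lower, so the split depends on the scaling. Among the genes of largest difference, *Apoe*, *Ly6c2*, the *H2-Q* genes, and *Irf8* were lower in TS, and *Hist1h1b*, *Ccna2*, and *Birc5* were among the higher. *Apoe*, an apolipoprotein (chromosome 7, 19696244 to 19701310), was at 294 CPM in CBM against 97.7 in TBM, and 445 in CS against 79.3 in TS. The control libraries stood above the tumor libraries in both tissues, and the log2 ratio of TS over CS was -2.49 (-2.60 to -2.38), or -2.69 (-2.94 to -2.45) in granule-high cells. Free RNA held *Apoe* at 395 CPM in CBM against 219.7 in TBM, and 718 in CS against 236 in TS, also higher in both controls. Its part was not tested apart from an alternative with free RNA subtracted. Over all alternatives, that one among them, the ratio of TS over CS stayed between -3.06 and -2.12.

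*Ly6c2* (chromosome 15, 75108161 to 75112066) was at 765 CPM in CBM against 449 in TBM, and 621 in CS against 131 in TS, and at 1223 CPM in CBM against 663 in TBM, and 994 in CS against 208 in TS in granule-high cells. TS stood apart from the other libraries, at a log2 ratio to CS of -2.25 (-2.34 to -2.16) in the gate and -2.26 (-2.35 to -2.17) in granule-high cells. Ly6C marks monocyte-lineage and later granulocyte cells, and reads of its near-identical neighbor *Ly6c1* could not be told from it where they match both. *Slpi*, the inhibitor of neutrophil elastase, was also lowest in TS, at 132 CPM in CBM against 81.8 in TBM, and 80.7 in CS against 25.7 in TS, with -1.65 (-1.87 to -1.42) for TS over CS. *Clec4a2*, an inhibitory lectin of myeloid cells, was at 38.3 CPM in CBM against 27.5 in TBM, and 27.1 in CS against 8.87 in TS, and *Clec12a*, another such lectin, at 333 CPM in CBM against 297 in TBM, and 309.6 in CS against 158 in TS. For TS over CS these were -1.61 (-2.004 to -1.21) and -0.97 (-1.08 to -0.87), so the second was just short of 2-fold. *Lgals1*, which encodes galectin-1, was at 425 CPM in CBM against 221 in TBM, and 531 in CS against 176 in TS, with -1.59 (-1.68 to -1.50) for TS over CS.

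*H2-Q7*, a gene of the nonclassical MHC class I molecule Qa-2 (chromosome 17, 35439140 to 35443773), was at 151 CPM in CBM against 56.9 in TBM, and 192 in CS against 51.8 in TS. Its neighbors *H2-Q6* and *H2-Q4* followed, at 56.7 CPM in CBM against 19.04 in TBM, and 65.4 in CS against 14.7 in TS and at 55.6 CPM in CBM against 27.5 in TBM, and 64.3 in CS against 29.9 in TS. The log2 ratios of TS over CS were -1.89 (-2.04 to -1.74), -2.15 (-2.43 to -1.88), and -1.10 (-1.34 to -0.87), but these genes are near-identical copies, so the split of reads between them is uncertain and they count as 1 observation rather than 3.

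Of 17 transcription factor genes of the granulocyte and monocyte lineages, 2 were at least 2-fold lower in TS than in CS and none higher. Over all genes compared, 0.893% were lower and 0.437% higher. The median log2 ratio of the 17 was -0.44 against 0.06 over all genes compared. *Irf8* (chromosome 8, 120736358 to 120756694) was at 83.9 CPM in CBM against 30.9 in TBM, and 85.6 in CS against 33.2 in TS, and at 62.1 CPM in CBM against 18.8 in TBM, and 66.2 in CS against 18.7 in TS in granule-high cells. Both tumor libraries lay below both controls, at -1.37 (-1.58 to -1.16) for TS over CS and -1.82 (-2.15 to -1.49) in granule-high cells. Free RNA held *Irf8* at 260.5 CPM in CBM against 101 in TBM, and 140.0 in CS against 16.4 in TS, also lower in both tumor libraries. Its part was not tested apart from an alternative with free RNA subtracted. Over all alternatives, that one among them, the ratio of TS over CS stayed between -2.06 and -0.999. A limit on *Csf1r* and *F13a1* per 10000 UMIs in place of 3 UMIs brought the ratio to -0.999, just short of 2-fold. *Zeb2*, a repressor that acts in monocyte and dendritic development, was at 226 CPM in CBM against 138 in TBM, and 299 in CS against 136 in TS, or -1.13 (-1.24 to -1.02). *Cebpe* was at 122 CPM in CBM against 90.3 in TBM, and 124 in CS against 72.3 in TS, or -0.78 (-0.94 to -0.61), *Spi1* differed by 0.20 (0.08 to 0.33), and *Gfi1* by -0.05 (-0.33 to 0.23).

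Of the surface genes of progenitors, 1 of 10 (*Ly6c2*) was at least 2-fold lower in TS than in CS, beside 0.893% of all genes compared, with a median of -0.53 beside 0.06 over all genes. *Cd93* was at 124 CPM in CBM against 78.3 in TBM, and 118 in CS against 61.7 in TS and differed by -0.94 (-1.11 to -0.77), while *Kit* differed by -0.60 (-0.73 to -0.46) and *Cd34* by -0.39 (-0.52 to -0.27). The remaining lowest genes were *Tsix*, at 165 CPM in CBM against 114 in TBM, and 183 in CS against 66.7 in TS and a log2 ratio of -1.46, which lies on the strand opposite *Xist* so that reads of the pair may be mixed, and the early response gene *Fosb*, at -1.40. The stress genes *Dnajb9*, an ER co-chaperone, and *Klf6* stood at -1.36 and -1.46.

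Genes higher in TS included *Hist1h1b*, *Ccna2*, *Birc5*, and *Cdca3*. *Hist1h1b*, a linker histone made in S phase, was at 216 CPM in CBM against 413 in TBM, and 135 in CS against 371 in TS, *Ccna2* (cyclin A2) at 38.2 CPM in CBM against 58.1 in TBM, and 35.3 in CS against 79.2 in TS, *Birc5* (survivin) at 105 CPM in CBM against 156 in TBM, and 93.5 in CS against 197 in TS, and *Cdca3* at 53.6 CPM in CBM against 87.9 in TBM, and 53.1 in CS against 111 in TS. TS stood above CS in each, at 1.46 (1.33 to 1.60), 1.17 (0.90 to 1.44), 1.07 (0.91 to 1.24), and 1.07 (0.85 to 1.29), and above CBM and TBM in all but *Hist1h1b*. In granule-high cells the ratios were 1.24, 1.44, 1.11, and 1.22. When the gate was applied to cells thinned to 2000 UMIs, a change in the cells taken, the ratios were 0.58, 0.70, 0.63, and 0.83, below 2-fold. *Hist1h3c* (histone H3) was at 1.06 (0.83 to 1.30), or 0.00 with that gate, and mRNAs of such histones mostly lack the poly-A tail by which the assay captures RNA. *Ddx39*, an RNA helicase, was at 1.10 (0.94 to 1.25) and *Chchd10*, a mitochondrial protein gene, at 1.35 (1.08 to 1.63) (0.99 without other-lineage cells). *Mthfd2*, an enzyme of mitochondrial folate metabolism, was at 19.98 CPM in CBM against 33.1 in TBM, and 22.7 in CS against 59.05 in TS, or 1.38 (1.05 to 1.72). *Car1*, a carbonic anhydrase of erythroid cells, was at 9.26 CPM in CBM against 6.68 in TBM, and 108 in CS against 247 in TS, but free RNA of the spleens held 1940.0 and 1960.4 CPM of it, 26.3% of its UMIs in CS lay in 1 cell, and its ratio of 1.19 was 0.22 in granule-high cells.

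**Figure D3:**
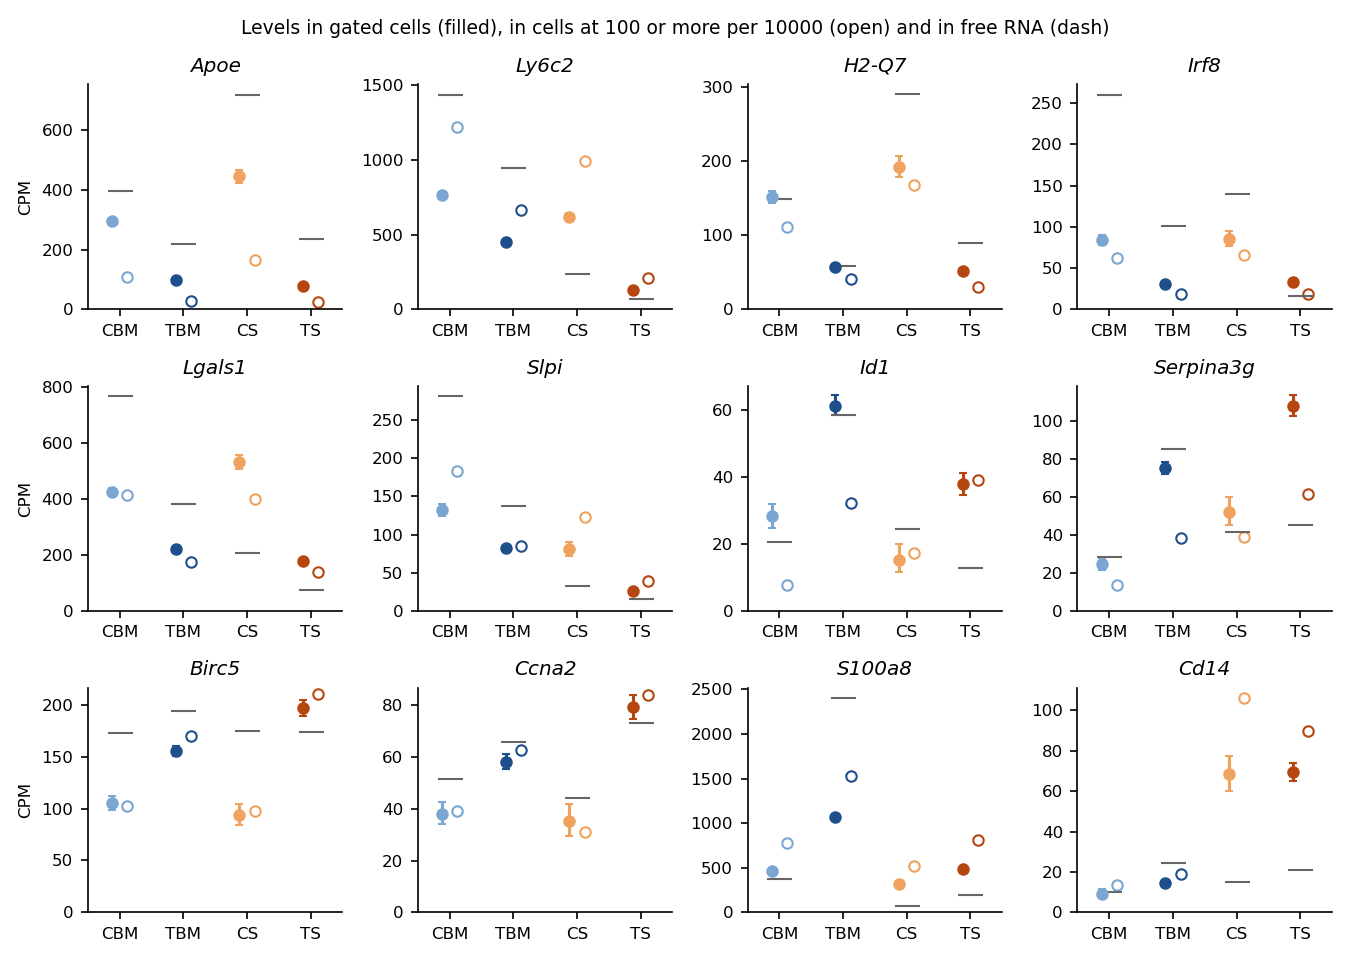
Levels (CPM, linear axis from 0) of 12 genes in gated cells (filled, with exact Poisson 95% intervals), in granule-high cells (open), and in free RNA (dash), for each library. *Apoe*, *H2-Q7*, *Irf8*, and *Lgals1* were lower in both tumor libraries than in both controls, *Ly6c2* and *Slpi* were lowest in TS, *Birc5* and *Ccna2* highest in TS, *S100a8* highest in TBM, and *Cd14* higher in both spleens than in BM.

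All 17 compared genes of G2 and mitosis lay above 0 for TS over CS, with a median log2 ratio of 0.56 in the gate and 0.63 in granule-high cells, and 2 of them (*Plk1* and *Birc5*) passed 2-fold, beside 0.437% of all genes compared. The median was 1.27 without cells holding markers of other lineages, which left 35.7% of the CS cells. *Mki67*, the marker of dividing cells, was at 175 CPM in CBM against 213 in TBM, and 210.0 in CS against 279.9 in TS, and *Top2a*, which untangles DNA before mitosis, at 278 CPM in CBM against 288 in TBM, and 283 in CS against 381 in TS. The ratios of TS over CS were 0.41 (0.30 to 0.53) and 0.43 (0.33 to 0.53), with -0.003 and 0.11 when the gate was applied to thinned cells and 1.27 and 1.12 without cells holding markers of other lineages. The 18 S phase genes had a median of 0.09 with none past 2-fold, while the G2 and mitosis median was 0.40 under the gate on thinned cells. With each cell thinned to 2000 UMIs, *Mki67* was detected in 19.5% (16.3% to 23.04%) of gated cells in CBM and 29.9% (27.6% to 32.2%) in TBM, and in 23.4% (15.9% to 32.4%) in CS and 34.2% (29.99% to 38.7%) in TS, and the intervals of CS and TS overlap. At 4000 UMIs the shares were 36.5% (27.3% to 46.6%) in CS and 52.3% (47.6% to 56.9%) in TS, intervals that do not overlap. Without thinning the shares were 47.5%, 65.8%, 66.1%, and 85.6%.

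In BM, the comparison of TBM with CBM asks the same question of the marrow. Fewer genes passed 2-fold, with 13 higher in TBM (0.258%) and 9 lower (0.179%). The higher genes held calprotectin and other mRNAs of later neutrophil stages. *S100a8* (chromosome 3, 90669071 to 90670034), a subunit of calprotectin, was at 469 CPM in CBM against 1068 in TBM, and 324 in CS against 492 in TS, and its partner *S100a9* (90692630 to 90695721) at 118 CPM in CBM against 574 in TBM, and 173 in CS against 271 in TS. TBM stood above the other 3 libraries in both, at 1.19 (1.14 to 1.23) and 2.28 (2.19 to 2.37) over CBM, or 0.98 and 2.03 in granule-high cells. Free RNA held *S100a8* at 379 CPM in CBM against 2405 in TBM, and 67.1 in CS against 197 in TS and *S100a9* at 139.7 CPM in CBM against 2174 in TBM, and 31.2 in CS against 139 in TS, so that TBM was also highest there, and with free RNA subtracted the ratio of *S100a8* was 0.94. *Anxa1*, which encodes the anti-inflammatory protein annexin A1, was at 148 CPM in CBM against 373 in TBM, and 185 in CS against 236 in TS, or 1.33 (1.25 to 1.42), and *Wfdc21* at 1.12 (1.01 to 1.23). These 4 were the members past 2-fold among 6 compared genes of the later neutrophil list, which had a median of 1.15. *Chil3*, which encodes a chitinase-like protein of neutrophil precursors, was below the minimum level for the comparison, at 1.35 CPM in CBM against 61.8 in TBM, and 1.09 in CS against 15.1 in TS, with 20.2 CPM in CBM against 398 in TBM, and 1.78 in CS against 13.3 in TS in free RNA.

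*Serpina3g*, a serine protease inhibitor, was at 24.6 CPM in CBM against 75.2 in TBM, and 52.2 in CS against 108 in TS, and *Id1*, an inhibitor of differentiation factors, at 28.2 CPM in CBM against 61.3 in TBM, and 15.3 in CS against 37.8 in TS. Both were higher in each tumor library than in its control, at 1.61 (1.41 to 1.82) and 1.12 (0.93 to 1.32) in BM and 1.05 (0.83 to 1.27) and 1.30 (0.90 to 1.73) in spleen. As the mean over cells of each cell's own CPM, in which deep cells weigh no more than shallow ones, *Id1* differed by 0.29 in BM. In granule-high cells of spleen *Serpina3g* differed by 0.67 (0.34 to 1.01), short of 2-fold. *Endog*, a mitochondrial nuclease, was at 16.5 CPM in CBM against 37.04 in TBM, and 19.7 in CS against 42.1 in TS, or 1.17 (0.92 to 1.43) in BM and 1.10 (0.74 to 1.47) in spleen. *Dmkn* and *Cirbp*, a cold-inducible RNA-binding protein gene, were at 1.16 (1.02 to 1.30) and 1.09 (0.96 to 1.23) in BM. *Prg2*, an eosinophil granule gene, had the largest ratio of the higher genes, 2.61 (2.48 to 2.74), but its UMIs lay in 10 gated cells in CBM and 55 in TBM, and 3 in CS and 5 in TS, and without cells holding markers of other lineages the ratio was -4.40. The basophil protease *Prss34* was at 889 CPM in CBM against 1737 in TBM, and 342 in CS against 310.0 in TS, or 0.97 (0.93 to 1.001), beside basophil-gene cells at 7.30% of the gate in CBM and 13.2% in TBM.

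*Irf8*, *Apoe*, and the *H2-Q* genes were lower in TBM than in CBM, at -1.44 (-1.59 to -1.30) for *Irf8*, -1.59 (-1.67 to -1.51) for *Apoe*, and -1.41 (-1.52 to -1.30) for *H2-Q7*. In granule-high cells these were -1.73 (-1.95 to -1.50), -1.95 (-2.12 to -1.77), and -1.46 (-1.62 to -1.30). As the mean of each cell's own CPM, *Irf8* differed by -0.81, short of 2-fold. *Ly6c2* and *Lgals1* were lower by less than 2-fold, at -0.77 (-0.81 to -0.73) and -0.94 (-1.003 to -0.88), and at -0.88 (-0.93 to -0.84) and -1.26 (-1.34 to -1.18) in granule-high cells, where *Lgals1* passed 2-fold. The remaining lower genes held B cell genes, with *Ebf1* at 96.8 CPM in CBM against 30.1 in TBM, and 0 in CS against 0.291 in TS and *Vpreb3* at 75.5 CPM in CBM against 26.98 in TBM, and 0 in CS against 0.218 in TS, beside a summed B cell list of 253 CPM in CBM and 96.7 in TBM. *Ccl4* was at -1.06 (-1.13 to -0.99), but at 0.84 in granule-high cells.

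The tumor comparisons of spleen and BM share no library. Lower in both were 6 genes, 13.3% of those lower in spleen and 66.7% of those lower in BM: *Apoe*, *Irf8*, *H2-Q4*, *H2-Q6*, *H2-Q7*, and *Ccl4*. Of these *H2-Q4* was at -1.02 (-1.19 to -0.85) in BM and at -0.75 there by per-cell CPM. Higher in both were 4 genes, 18.2% of those higher in spleen and 30.8% of those higher in BM: *Id1*, *Serpina3g*, *Endog*, and *Prg2*, of which *Serpina3g* and *Prg2* were under 2-fold between TS and CS in granule-high cells, and *Id1* was at 0.87 for TS over CS without other-lineage cells. None passed 2-fold in opposite directions. Over all genes compared, 0.437% were higher and 0.893% lower in spleen, and 0.258% higher and 0.179% lower in BM. With so few genes past 2-fold, the absence of opposite ones does not show that the tissues agree. Since near-identical *H2-Q* genes and an eosinophil gene stand among the genes shared by both tumor comparisons, the shared genes spread over many gated cells were few. *Apoe* had UMIs in 302 gated cells of CBM and 665 of TBM, and in 83 of CS and 220 of TS, and *Irf8* in 220, 402, 61, and 154. *Ly6c2*, *Slpi*, and division genes past 2-fold in spleen were not past it in BM, where *Slpi* was at -0.69 (-0.79 to -0.58), *Ccna2* at 0.61 (0.44 to 0.78), and *Birc5* at 0.57 (0.46 to 0.67). In granule-high cells of BM *Slpi* passed it, at -1.10 (-1.22 to -0.98), as did *Hist1h1b*, at 1.12 (1.03 to 1.21). Whether the tumor contrasts of spleen and BM differed was not tested.

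Between control tissues, 12 genes were at least 2-fold higher in CS than in CBM (0.238%) and 23 at least 2-fold lower (0.456%). Early response genes and *Cd14* were higher in CS, and basophil genes lower. *Cd14*, the coreceptor of TLR4 for bacterial lipopolysaccharide, was at 9.26 CPM in CBM against 14.5 in TBM, and 68.4 in CS against 69.6 in TS, and at 13.7 CPM in CBM against 19.2 in TBM, and 106 in CS against 89.6 in TS in granule-high cells. Both spleen libraries stood above both BM libraries, at 2.88 (2.52 to 3.26) for CS over CBM, and the ratio stayed between 2.77 and 3.12 over the alternatives. Free RNA held *Cd14* at 10.3 CPM in CBM against 24.4 in TBM, and 15.2 in CS against 20.8 in TS. *Cxcl2*, the neutrophil chemoattractant whose promoter is printed above, was at 10.2 CPM in CBM against 23.5 in TBM, and 70.8 in CS against 108 in TS, or 2.80 (2.45 to 3.16) for CS over CBM. In granule-high cells it was at 0.381 CPM in CBM against 2.71 in TBM, and 6.62 in CS against 33.6 in TS, and in free RNA at 13.3 CPM in CBM against 26.1 in TBM, and 66.3 in CS against 85.1 in TS, and 52.5% of its UMIs in the gated cells of CS lay in 5 cells. Thinned to 2000 UMIs, it was detected in 1.08% (0.398% to 2.34%) of gated cells in CBM and 3.44% (2.59% to 4.47%) in TBM, and in 12.6% (7.07% to 20.3%) in CS and 15.5% (12.4% to 19.1%) in TS. Without thinning the shares were 3.38%, 6.99%, 28.7%, and 38.7%. The erythroid cells of the same libraries, which should lack it and were taken by erythroid genes with few granule gene UMIs, gave 0%, 0%, 7.11%, and 5.27% when thinned, at a median of 16403, 21244, 52929.5, and 34674.5 UMIs against 13208.5, 11477, 33052, and 28598.5 in the gate before thinning. In TS the share of gated cells lay above that of erythroid cells, while in CS the intervals overlap (5.69% to 8.76% in erythroid cells).

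Of 17 immediate-early genes, which cells turn on within minutes of a stimulus or of handling, 16 lay above 0 for CS over CBM, 3 passed 2-fold (beside 0.238% of all genes compared), and the median was 0.74, or 1.88 in granule-high cells. In granule-high cells 11 of 14 compared genes were at least 2-fold higher, beside 38 of all 4764 genes compared there. As the mean of each cell's own CPM the median was 0.05. The AP-1 genes *Jun*, *Fosb*, and *Fos* were at 1.68 (1.57 to 1.79), 1.52 (1.41 to 1.63), and 1.08 (1.03 to 1.14), and *Jun* had 137 CPM in CBM against 210.3 in TBM, and 438 in CS against 239.8 in TS. *Nr4a2*, an orphan nuclear receptor gene, was at 1.60 (1.43 to 1.77), *Nr4a1* at 0.96 (0.80 to 1.13), and *Egr1* at 0.96 (0.83 to 1.09). As the mean of per-cell CPM *Jun* was at 0.86 and *Egr1* at -0.37. Summed over the list, gated cells held 2393 CPM in CBM and 2565 in TBM, and 4542 in CS and 3171 in TS, and free RNA 2594, 2813, 3809, and 2776, so CS was highest in both, and the part of digestion or handling was not tested. *Clec4e*, a lectin receptor of neutrophils and macrophages, was at 1.17 (0.87 to 1.48) (0.50 without other-lineage cells), and the nuclear noncoding RNA *Neat1* at 0.87 (0.75 to 0.98).

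The lower genes of CS included the chemokine gene *Ccl6*, at 169 CPM in CBM against 202 in TBM, and 7.11 in CS against 8.07 in TS, or -4.57 (-5.19 to -4.02) (-2.05 in granule-high cells). *Ccl3* and *Ccl4*, chemokine genes whose RefSeq annotations overlap, were at -1.41 (-1.58 to -1.24) and -1.10 (-1.25 to -0.96), but at 2.24 and 1.97 in granule-high cells, where *Ccl3* was at 10.5 CPM in CBM against 17.8 in TBM, and 49.4 in CS against 8.58 in TS. Few cells carried it there, with 72.7% of its UMIs in CBM in 1 cell and 69.6% of those in CS in 5 cells. *Prss34*, *Fcer1a*, and *Mcpt8* of basophils and mast cells were at -1.38 (-1.47 to -1.29), -1.18 (-1.48 to -0.89), and -0.90 (-0.99 to -0.81) (with *Fcer1a* at -0.74 in cells with 2000 genes or more), beside basophil-gene cells at 6.09% of the gate in CS and 7.30% in CBM. *Chchd10* was at -1.04 (-1.32 to -0.76), and at 0.02 without cells holding markers of other lineages, and *Lars2* was at -0.86 (-1.07 to -0.66). *Irf8* differed by 0.03 (-0.17 to 0.22) between the control tissues, with values from -0.21 under the gate on thinned cells to 0.996 without other-lineage cells. *Car1* had a ratio of 3.55 (3.20 to 3.91), beside free RNA of 89.8 CPM in CBM and 1940.0 in CS.

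In tumor-bearing mice, 8 genes were at least 2-fold higher in TS than in TBM (0.159%) and 52 at least 2-fold lower (1.03%). *Cd14* was at 2.26 (2.09 to 2.44) and *Cxcl2* at 2.21 (2.07 to 2.35), or 2.22 and 3.63 in granule-high cells. *Ptgs2*, which encodes cyclooxygenase-2, was at 27.2 CPM in CBM against 17.2 in TBM, and 54.7 in CS against 56.5 in TS, or 1.72 (1.55 to 1.89). *Hsph1*, of the heat shock response, was at 1.13 (0.99 to 1.27), and the immediate-early genes *Nr4a1* and *Fos* at 1.06 (0.96 to 1.15) and 0.90 (0.87 to 0.93). *Nr4a2* was at 0.90 (0.79 to 1.001), the MAP kinase phosphatase *Dusp2* at 0.99 (0.88 to 1.09), and the mitotic gene *Cenpv* at 0.89 (0.75 to 1.02). In granule-high cells *Cenpv* was at 0.56. Free RNA held *Cenpv* at 31.8 CPM in CBM against 32.4 in TBM, and 94.7 in CS against 130 in TS. The erythroid genes *Car1* and *Blvrb* were at 5.21 (4.99 to 5.43) and 1.60 (1.46 to 1.74), beside free RNA of *Blvrb* at 112 CPM in CBM against 100.4 in TBM, and 643 in CS against 701 in TS, and with free RNA subtracted *Blvrb* was at -1.09.

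The lower genes of TS held the later neutrophil, basophil, and Ly6C genes. *Ly6c2* was at -1.78 (-1.85 to -1.71) and *Slpi* at -1.67 (-1.83 to -1.51). *S100a8*, *S100a9*, *Wfdc21*, and the peptidoglycan-binding protein gene *Pglyrp1* were at -1.12 (-1.16 to -1.08), -1.09 (-1.14 to -1.03), -1.23 (-1.32 to -1.14), and -1.35 (-1.45 to -1.26), the 4 of 6 later neutrophil genes past 2-fold (median -1.10). Over all genes compared in the gate, 1.03% were at least 2-fold lower. In granule-high cells 3 of 7 were past it (median -0.91), beside 0.483% of all 4764 genes compared there, with *S100a8* at -0.91 and *S100a9* at -0.80, and with free RNA subtracted *S100a9* was at -0.47. Free RNA of this list summed to 5718 CPM in TBM and 455 in TS. Of 6 compared mast cell and basophil genes 5 were at least 2-fold lower in the gate, beside 1.03% of all genes compared. *Fcer1a* was at -2.43 (-2.60 to -2.27), *Prss34* at -2.49 (-2.53 to -2.44), and *Ms4a2* at -1.68 (-1.83 to -1.54), beside basophil-gene cells at 13.2% of the gate in TBM and 4.81% in TS. *Prg2*, *Ccl6*, and *Ccl3* were at -3.43 (-3.57 to -3.29), -4.65 (-4.93 to -4.38), and -2.22 (-2.35 to -2.08), or -4.07, -1.93, and -1.05 in granule-high cells. The comparisons CS with CBM and TS with TBM each share libraries with the tumor comparisons, so their values stand side by side and were not counted as agreement.

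By role, the primary granule list, 15 compared genes outside the gate, had 0 genes past 2-fold in any of the 4 comparisons (in granule-high cells 2 were lower in TS than in CS, beside 1.22% of all genes, and 1 lower in TS than in TBM), and medians of -0.13 (TS over CS), 0.13 (TBM over CBM), 0.01 (CS over CBM), and -0.30 (TS over TBM). The medians over all genes compared were 0.06, 0.05, 0.06, and 0.09. Of the gate genes themselves, *Elane* was at 4213 CPM in CBM and 3277 in TBM, and 3831 in CS and 2090 in TS, *Mpo* at 4430, 3816, 4432, and 2530, and *Prtn3* at 5279, 6228, 5033, and 5666, as a description of cells chosen for them. The TNFα-related NF-κB list had 12 compared genes and medians of -0.12, 0.06, 0.47, and 0.20 in the same order. *Nfkbia*, the feedback inhibitor of NF-κB, was at 153 CPM in CBM against 165 in TBM, and 225 in CS against 236 in TS, and *Nfkbiz* at 43.5 CPM in CBM against 64.95 in TBM, and 76.3 in CS against 77.4 in TS, neither past 2-fold in a tumor comparison. Of the list, 0 were higher and 2 lower for TS over CS, 1 and 1 for TBM over CBM, 2 and 2 for CS over CBM, and 2 and 2 for TS over TBM. Over all genes compared, the shares were 0.437% and 0.893%, 0.258% and 0.179%, 0.238% and 0.456%, and 0.159% and 1.03%. *Cxcl2* was the higher one in BM, at 1.21 (0.89 to 1.54), and was at 2.34 for TS over CS in granule-high cells. In granule-high cells 7 genes of the list were compared, with medians of -0.06, 0.10, 0.64, and 0.35. There 2, 4, 7, and 7 of them lay above 0, and 2 passed 2-fold, both higher for CS over CBM. Of all 4764 genes compared in granule-high cells, 38 were at least 2-fold higher for CS over CBM. *Tnf* itself was low, at 4.40 CPM in CBM against 12.5 in TBM, and 18.6 in CS against 14.9 in TS, and *Il1r1*, the interleukin-1 receptor gene, at 10.2 CPM in CBM against 15.4 in TBM, and 3.83 in CS against 12.7 in TS. Thinned to 2000 UMIs, *Tnf* was detected in 0.722% (0.197% to 1.84%) of gated cells in CBM and 3.05% (2.25% to 4.04%) in TBM, and in 2.70% (0.561% to 7.70%) in CS and 2.52% (1.31% to 4.36%) in TS. Thinned erythroid cells gave 0%, 0.952%, 0.0878%, and 0.0727%, and gated cells without thinning 5.34%, 10.4%, 31.3%, and 26.8%. TBM lay above CBM with intervals that do not overlap, at a level of few UMIs. *Il1r1* was detected in 0 of 111 thinned cells in CS, which allows a share of up to 2.70% by a floor of 3 cells and up to 3.27% by the exact interval, and in 2.10% (1.01% to 3.83%) in TS. These shares limit cells with a UMI, not cells that express the gene, and at 4000 UMIs they were 0.962% (0.0243% to 5.24%) in CS and 6.88% (4.75% to 9.58%) in TS. Its shares without thinning were 9.61%, 16.9%, 10.4%, and 25.1%, and 0%, 0.952%, 0.176%, and 0.800% in thinned erythroid cells.

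Among 7 compared cytokine and microbial receptors, *Cd14* was the one past 2-fold, in CS over CBM and in TS over TBM, and the list's medians lay between -0.12 and 0.02. The heat shock list (8 compared genes) had medians of 0.43, 0.19, 0.35, and 0.54, with *Hspd1*, the mitochondrial chaperonin, at 0.80 (0.73 to 0.87) for TS over CS. The ATF4 list (7 compared genes), which answers amino acid stress, had 0.45 and 0.43 in the tumor comparisons, with *Mthfd2* the member past 2-fold, in spleen. The glycolysis list (12 compared genes) had 0.28 and 0.31, and *Ldha*, lactate dehydrogenase A, was at 399.9 CPM in CBM against 647 in TBM, and 484 in CS against 844 in TS, higher in each tumor library by less than 2-fold. The homing list (10 compared genes) had -0.27 and -0.15, the interferon list (7 compared genes) -0.10 and 0.14, and the list of ER folding and secretion (13 compared genes) 0.08 and 0.20, with *Dnajb9* past 2-fold in spleen. *Ifitm1*, of the interferon list, was at 446 CPM in CBM against 855 in TBM, and 554 in CS against 985 in TS, and at 52.2 CPM in CBM against 372 in TBM, and 103 in CS against 597 in TS in granule-high cells, higher in each tumor library than in its control.

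**Figure D4:**
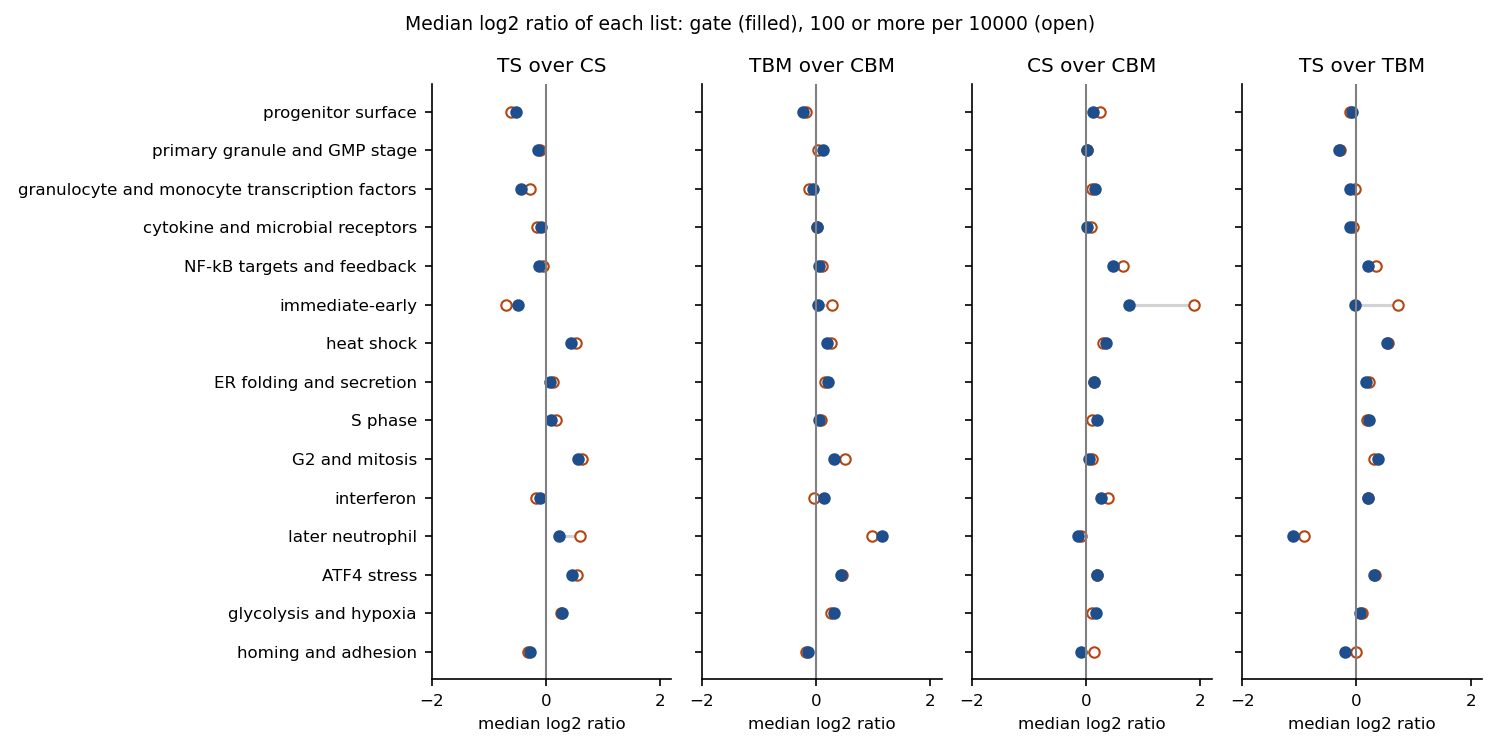
Median log2 ratio of the compared genes of each of 15 lists (rows) in the 4 comparisons (panels), in gated cells (filled) and granule-high cells (open). Most medians lie near 0, the G2 and mitosis list lies at 0.56 for TS over CS, the later neutrophil list at 1.15 for TBM over CBM, and the immediate-early list at 0.74 for CS over CBM.

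For the neutrophil and monocyte factors, gated cells were compared at 2000 UMIs each, without 8, 32, 4, and 2 cells that were shallower. *Irf8* was detected in 14.6% (11.8% to 17.8%) of gated cells in CBM and 10.3% (8.78% to 11.9%) in TBM, and in 15.3% (9.18% to 23.4%) in CS and 5.46% (3.60% to 7.90%) in TS, and without thinning in 39.1%, 25.6%, 53.0%, and 32.2%. Erythroid cells gave 1.96%, 0%, 1.05%, and 0.145%, lower in each library. At 2000 UMIs the share of gated cells was lower in TS than in CS with intervals that do not overlap, while those of CBM and TBM overlap. At 4000 UMIs, without 123, 401, 11, and 13 shallower cells, it was 22.6% (18.7% to 26.8%) in CBM and 10.1% (8.40% to 11.9%) in TBM. In spleen it was then 26.9% (18.7% to 36.5%) in CS and 9.89% (7.33% to 12.97%) in TS. At 4000 UMIs the intervals overlap in neither tissue. Thinned to 2000 UMIs, *Cebpe* was detected in 14.3% (11.5% to 17.5%) of gated cells in CBM and 10.7% (9.21% to 12.4%) in TBM. In spleen it was detected in 18.02% (11.4% to 26.4%) in CS and 10.9% (8.27% to 14.1%) in TS. These intervals overlap within spleen and within BM. Its shares were 39.1%, 34.8%, 53.04%, and 54.4% without thinning, and 0%, 0%, 0.0878%, and 0.0364% in thinned erythroid cells. Both genes were detected together in 7, 7, 0, and 0 cells, and at 4000 UMIs in 20, 9, 5, and 1. With each gene detected in few cells at these depths, these counts do not show whether the factors occur in the same cells.

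The nearest cells outside the gate were those that met it except for more than 3 UMIs of *Csf1r* and *F13a1*, 688 in CBM and 787 in TBM, and 97 in CS and 171 in TS. Of 5044 genes compared, 34 were at least 2-fold higher in gated cells than in these cells in all 4 libraries and 29 at least 2-fold lower. *Irf8* was at 636 CPM in these cells in CBM and 272 in TBM, and 544 in CS and 184 in TS, so that the tumor libraries were below their controls on both sides of the gate. Free RNA of *Irf8*, given above, was also lower in both tumor libraries, and its part in these cells was not tested. Barcodes above the limit of 3 UMIs had a median of 8.30 *Csf1r* plus *F13a1* UMIs per 10000 in CBM and 4.63 in TBM. In spleen the medians were 4.94 in CS and 2.02 in TS. These medians were also lower in the tumor libraries, and their part in the *Irf8* values was not tested. *Klf4*, *Ly86*, *Ccr2*, and *Mpeg1*, genes of the monocyte lineage, were among those lower in gated cells in all 4 libraries. The cells outside were chosen by the monocyte genes *Csf1r* and *F13a1*, so higher monocyte genes there follow from that choice. The secondary granule genes left out few cells, 1 in CBM and 16 in TBM.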

How the data were processed

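10x Genomics 3' v3.1 libraries were deposited, 1 each of CBM, TBM, CS, and TS. The authors deposited unfiltered matrices of whole-number UMI counts per gene and barcode (32285 genes). The submitters' processing notes name Cell Ranger 4.0 and mm10. Barcodes were kept with at least 1000 genes and at most 10% mitochondrial UMIs, and the gate given in the report was applied. No doublet caller was run, and cells with markers of other lineages or the 5% of gated cells with the most UMIs were left out as alternatives.

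Gate UMIs were summed per library and divided by the library's gated total (CPM). Genes whose 4 libraries averaged 25 CPM or more were compared, without the 11 gate genes and mitochondrial genes, and called at a log2 ratio of 1 or more in size. Named genes were the 8 highest and 8 lowest of each comparison at a mean of at least 50 CPM with an interval excluding 0 (leaving out gate, mitochondrial, ribosomal, hemoglobin, immunoglobulin, *Xist*, and unnamed Gm or Rik genes), plus list genes at the extremes of their list, named by the study, or needed for their role. In the comparisons between libraries, *Clec4a2*, *Endog*, *Id1*, *Serpina3g*, *H2-Q4*, and *H2-Q6* were named outside this rule. The members and lists were chosen with earlier results of these data known. No ratio was given where both libraries were at or under the floor of 3 counts, as counts or as CPM. Intervals and floors cover counting error only, at 95%. Free RNA came from barcodes with at most 100 UMIs. Erythroid reference cells were quality-filtered barcodes with at least 20 UMIs per 10000 of 7 erythroid genes, 3 or more detected, and under 5 of the granule genes. The ratio step was tested on simulated data. Gene positions and promoters were from RefSeq, both GRCm38. Python 3.11.15, numpy 2.4.6, scipy 1.17.1, pandas 2.3.3, and matplotlib 3.10.9 were used.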

Additional observations from a re-analysis of the deposited data

Results flagged for a closer look

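Among the genes named here for the tumor comparisons, not over all genes compared, opposite directions in spleen and BM were looked for. In 3 of them the tumor-bearing library stood past 2-fold from its control in spleen and on the other side of 0 in BM, with counting intervals that leave out 0 in both tissues. *Car1* had a log2 ratio of 1.19 for TS over CS and -0.47 for TBM over CBM. *Dusp1*, a phosphatase gene of the early response, was at -1.17 in spleen and 0.25 in BM. *Fosb* was at -1.40 in spleen and 0.42 in BM. In *Dusp1* and *Car1* the direction in BM depended on the cells taken, since the BM ratio of *Dusp1* was -0.087 under the gate on thinned cells, and in granule-high cells that of *Car1* was 0.75. In granule-high cells of spleen *Dusp1* was at -0.97 and *Car1* at 0.22, both short of 2-fold. With 1 library per group, the difference between tissues was not tested. Free RNA of *Car1* and the sum of the immediate-early list are given with the spleen comparisons above, and their part in these values was not tested.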

How the results depend on the processing

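Each group is 1 library, so no value here separates the tumor or the tissue from the library, and the few cells of CS (115) limit the spleen comparisons. No paired analysis was possible because each group has 1 library and no test was made. Of 50 values of the main comparisons that moved by more than the set margin, most were counts past 2-fold, and the cause was not tested except that filters on level change how many genes are compared. In the order higher and lower, TS over CS gave 48 and 137 by the mean of per-cell CPM, 48 and 115 at a minimum of 10 CPM, 7 and 14 at 100 CPM, and 90 and 81 without cells holding markers of other lineages. The higher count was 12 by median-of-ratios scaling, and 43 both with free RNA subtracted and in granule-high cells. TBM over CBM gave 21 and 16 by per-cell CPM, 24 and 25 at 10 CPM, and 5 and 3 at 100 CPM, with 26 higher in granule-high cells, 21 higher at 2000 genes or more, and 20 lower under the gate on thinned cells. CS over CBM gave 48 and 112 by per-cell CPM, 26 and 44 at 10 CPM, 4 and 8 at 100 CPM, 38 and 4 in granule-high cells, 19 and 15 with *Csf1r* plus *F13a1* at most 2 per 10000, 22 and 10 at 2000 genes or more, and 22 and 14 without other-lineage cells, with 19 higher under the gate on thinned cells. TS over TBM gave 159 lower by per-cell CPM, 13 and 111 at 10 CPM, 1 and 17 at 100 CPM, 13 and 23 in granule-high cells, 15 higher with *Csf1r* plus *F13a1* scaled, and 26 lower without other-lineage cells. The NF-κB median was 0.012, 0.15, and 0.71 for CS over CBM by per-cell CPM, at 100 CPM, and at 2000 genes or more, -0.082 and -0.63 for TS over TBM under the first 2 of these, and 0.37 for TBM over CBM at 2000 genes or more. Of 84 single-gene ratios past 2-fold, 8 changed sign under at least 1 alternative: *Blvrb* TS over TBM (-1.09, free RNA subtracted), *Ccl4* TBM over CBM (0.84 in granule-high cells, 0.35 at 2000 genes or more), *Ccl3* and *Ccl4* CS over CBM (2.24 and 1.97 in granule-high cells, 0.023 and 0.71 at 2000 genes or more), and, without other-lineage cells, *Car1* and *Prg2* TS over CS (-0.41 and -3.90), *Prg2* TBM over CBM (-4.40), and *Chchd10* CS over CBM (0.021). *Prss34* CS over CBM had no ratio there. Of 54 ratios under 2-fold, 13 changed sign, such as *Egr1* and *Nfkbia* CS over CBM (-0.37 and -0.27 by per-cell CPM) and *Dusp1* and *Klf6* TBM over CBM (-0.087 and -0.38 under the gate on thinned cells). Of the 84 past 2-fold, 36 came under it under at least 1 alternative. Beside those given with their values above, these included *Ccl3* and *Ccl4* TS over CS (-0.21 and -0.38), *Ptgs2*, *Jun*, and *Prss34* CS over CBM (0.32, 0.86, and -0.95), *Wfdc21* TBM over CBM (0.86), and *Nr4a1* TS over TBM (0.69), all by per-cell CPM, *Cxcl2* and *Vpreb3* TBM over CBM without other-lineage cells (0.71 and -0.58), and *Plk1* TS over CS under the gate on thinned cells (0.58).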
